A study of Mus musculus with 30 samples.

Results

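The 34 genes described here are mouse orthologues of genes that are recurrently mutated in human myelodysplastic syndromes (MDS) and acute myeloid leukaemia (AML). They were chosen by symbol from knowledge of the human diseases, with earlier results of these data known. All were looked up in 3 deposited expression tables. The table of LSK cells (Lin-, Sca1+, Kit+, the marrow fraction that holds stem and multipotent progenitor cells) held 32 of them among 11740 genes, without Wt1 and Setbp1. The table of whole bone marrow held 33 among 11275 genes, without Wt1, and the table of cultured stromal cells held all 34 among 20619 genes. The data are transcript levels. They carry no information on whether any of these genes was mutated in the mice.

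The 30 RNA-seq libraries came from C57BL/6 mice in a model of myeloid disease after cytotoxic therapy. LSK cells came from 4 groups of 3 libraries: untransplanted wild type (WT); wild type marrow carrying a luciferase shRNA, transplanted into wild type recipients (transplanted WT); Egr1+/- Apc del/+ marrow carrying a Trp53 shRNA, likewise transplanted (EAP); and, as EAP with ENU, such marrow where both donor and recipient had received the alkylating mutagen ENU. The LSK cells of the transplanted groups were sorted about 2 months after transplant, before disease. Whole marrow came from 6 mice with MDS, all from Egr1+/- Apc del/+ marrow with the luciferase shRNA and ENU in donor and recipient, and from 6 mice with AML, all from Egr1+/- Apc del/+ marrow with the Trp53 shRNA. Of the AML mice, AML 1, 4 and 5 had ENU in donor and recipient, AML 2 and 3 had none, and AML 6 had it in the recipient alone, so every MDS and AML library shares the Egr1 and Apc alleles and the groups differ in both the shRNA and the disease. Stromal cells from compact bone, grown to passage 1 or 2, gave 3 libraries from wild type mice treated with 10% ethanol (mock) and 3 from mice treated with 100 mg/kg ENU, 1 month earlier. The labels do not say whether libraries came from separate mice except by tag numbers in the marrow groups, so elsewhere the p-values measure the spread between these samples. No source used here gives ages, and the host's own cells in transplanted marrow were not separated from donor cells as far as the labels say.

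These genes act at a few recurring steps. Some set or read chromatin marks: Dnmt3a adds methyl groups to DNA, Tet2 oxidises them, Idh1 and Idh2 make the cosubstrate that Tet2 needs, and Ezh2, Eed and Suz12 form the core of the Polycomb repressive complex. Others choose splice sites, hold sister chromatids and chromatin loops together as cohesin, carry growth factor signals, or act as blood transcription factors.

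Summed values per library were 808377 to 1437201 in LSK cells, 803746 to 1118648 in marrow and 924162 to 939600 TPM in stromal cells. Reads recovered from the marrow values numbered 17341986 to 21698808 per library, and depth is unknown for the other tables. Trp53, the shRNA target, was at 65.5 to 173 in the 6 LSK libraries with the Trp53 shRNA and at 213 to 370.4 in the 6 without, and at 43.1 to 97.9 in MDS and 23.0 to 58.0 in AML. Kit and Ly6a (Sca1), 2 genes of the LSK gate, were at 65.3 to 598 and 78.01 to 245 in all 12 LSK libraries, lowest for Kit in EAP 1. In stromal cells 9 stromal genes summed to 2124 to 7562 TPM and 6 blood cell genes to 6.17 to 92.8 TPM. For EAP 1 the transplant field names wild type marrow while the fields for genotype and shRNA name the EAP alleles, and it had the lowest Trp53 value in LSK cells. WT 2, transplanted WT 3 and EAP 1 stand apart from the other LSK libraries in many members, as described with the LSK results. Among the AML libraries, AML 3 was low in Ptprc, the leucocyte antigen CD45 (15.3 against 645 to 1719 in the other 5), and high in the B-cell transcription factor Pax5 (208 against 1.25 to 3.04). AML 4 and AML 5 were high in the T-cell gene Cd3e (258 and 947 against 0.957 to 16.2 in the other 4). The label AML therefore covers marrow with unlike lineage markers, and values are given library by library below.

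Promoters of the 4 genes that passed in AML against MDS once AML 1 was left out are shown first, since their transcripts were higher in the same direction. Each window spans 250 bases before to 50 bases after a start site and is taken from RefSeq on GRCm38.p6, which is the mm10 build. Capitals mark the GC box GGGCGG and, on the other strand, CCGCCC, the letters bound by Sp1-family factors. For Dnmt3a, 2 of the windows found are printed, one for its long form and, further into the gene, one for a shorter form. For Kmt2a, Bcor and Cux1 the first window found is printed.
Dnmt3a, chr12:3806730-3807029, plus strand: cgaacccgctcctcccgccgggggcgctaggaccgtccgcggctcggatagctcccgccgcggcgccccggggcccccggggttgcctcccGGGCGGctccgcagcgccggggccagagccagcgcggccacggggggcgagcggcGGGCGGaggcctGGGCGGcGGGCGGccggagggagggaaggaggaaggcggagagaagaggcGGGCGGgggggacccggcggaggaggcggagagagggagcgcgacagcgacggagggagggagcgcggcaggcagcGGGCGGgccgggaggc
Dnmt3a, chr12:3891494-3891793, plus strand: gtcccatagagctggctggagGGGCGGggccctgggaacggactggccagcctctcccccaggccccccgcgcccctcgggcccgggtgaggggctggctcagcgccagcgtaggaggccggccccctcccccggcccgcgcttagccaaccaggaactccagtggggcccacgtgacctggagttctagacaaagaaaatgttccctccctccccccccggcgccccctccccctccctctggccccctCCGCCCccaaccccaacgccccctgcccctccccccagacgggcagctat
Kmt2a, chr9:44881240-44881539, minus strand: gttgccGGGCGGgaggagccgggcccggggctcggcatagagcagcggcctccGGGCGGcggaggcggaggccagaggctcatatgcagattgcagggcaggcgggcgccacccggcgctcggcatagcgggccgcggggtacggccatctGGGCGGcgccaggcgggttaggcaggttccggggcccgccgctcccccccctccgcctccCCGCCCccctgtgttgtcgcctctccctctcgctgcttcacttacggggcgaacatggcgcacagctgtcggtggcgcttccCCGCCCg
Bcor, chrX:12160297-12160596, minus strand: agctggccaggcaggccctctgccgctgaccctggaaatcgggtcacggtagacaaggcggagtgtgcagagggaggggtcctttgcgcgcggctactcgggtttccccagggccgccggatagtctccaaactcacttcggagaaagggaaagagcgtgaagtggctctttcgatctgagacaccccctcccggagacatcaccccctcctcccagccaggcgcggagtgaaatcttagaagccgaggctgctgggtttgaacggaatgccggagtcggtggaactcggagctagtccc
Cux1, chr5:136565932-136566231, minus strand: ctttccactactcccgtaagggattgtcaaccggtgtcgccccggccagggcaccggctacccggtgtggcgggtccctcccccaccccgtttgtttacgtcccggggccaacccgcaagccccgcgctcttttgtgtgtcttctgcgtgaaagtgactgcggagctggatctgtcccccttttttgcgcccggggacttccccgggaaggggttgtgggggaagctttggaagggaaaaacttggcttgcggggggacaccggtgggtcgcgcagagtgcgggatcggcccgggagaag

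The upstream Dnmt3a window held 6 GC boxes and 46 CpG dinucleotides, and 1.65% of the 32851 promoter windows in the table held as many CpG. The downstream Dnmt3a window held 2 GC boxes and 18 CpG, and the Kmt2a window held 5 GC boxes and 36 CpG. The Bcor and Cux1 windows held none of the GC box letters, with 21 and 25 CpG. GGGCGG or its complement was in 35.7% of all windows and in 29 of the 36 windows found for 29 members. The ETS motif CCGGAAG, searched on both strands, was in none of the 5 windows printed, in 3 of the 36 member windows and in 8.86% of all windows. With no ETS match the motifs do not overlap there, and a match is a description of letters, not of binding. The median CpG count was 27 over the member windows and 7 over all windows. The expression values do not say which Dnmt3a start was used.

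Levels between genes were compared per length, as the value divided by exonic kilobases for LSK cells and marrow and as TPM for stromal cells, so that order can be read within a table only. In MDS marrow the highest members per kilobase were Rad21, a cohesin subunit (127 ± 19.6, SD, n = 6), the splicing factor Srsf2 (115 ± 4.85) and the lymphoid and progenitor transcription factor Ikzf1 (114 ± 17.3), which do not differ beyond their spread. Dnmt3a ranked 31 of 33 there at 2.70 ± 0.506 per kilobase, above Nf1 and Setbp1. In AML it was 8.46 ± 3.56 per kilobase and ranked 26. In WT LSK cells the highest were Srsf2 (213 ± 74.5, n = 3), the mitochondrial enzyme Idh2 (206 ± 48.7) and the splice-site factor U2af1 (138 ± 40.3), whose means ± 1 SD overlap. Nf1 was the lowest of the 32 at 0.117 ± 0.0494, next to Bcorl1 and Kmt2a. In mock stromal cells Idh1 led at 280 ± 62.9 TPM, followed by Srsf2 at 207 ± 43.1 and Idh2 at 149 ± 20.7. The blood factors Ikzf1 and Wt1 were near 0 in stromal cells, at most 0.428 and 0.0138 TPM in the 6 libraries. U2af1 lay above 95.6% of genes per length in WT LSK cells and 93.9% in mock stromal cells but above 41.8% in MDS marrow. The tables were made separately, and the reason for this difference was not tested.

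AML was set against MDS in whole marrow, the largest comparison of the study and one in which shRNA, disease and, for some mice, ENU differ together. Dnmt3a, the de novo DNA methyltransferase, was the 1 member of 33 that passed at an adjusted p of 0.05 (limma, Benjamini-Hochberg over 11273 genes). It was higher in AML, where 0.994% of all genes passed as higher and 3.2% passed in either direction. 9 members had an unadjusted p under 0.05, a share of 33 near the 29.3% of all genes. Over the 33 members the median log2 change was -0.0034, against 0.04 over all genes.

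Dnmt3a was 39.1, 57.2, 40.1, 35.4, 52.5 and 45.1 in MDS 1 to 6. It was 34.03, 199, 175, 115, 169 and 152 in AML 1 to 6. Of the AML libraries, 5 lay above every MDS value and AML 1 lay below them all. The means were 141 ± 59.2 (SD, n = 6) in AML and 44.9 ± 8.42 in MDS, a log2 difference of 1.46 ± 0.36 (SE, adjusted p = 0.0499). The call was lost with a pseudocount of 0.1, with the replicate number as a block and without any one of the libraries other than AML 1. Without AML 1 the difference was 1.83 ± 0.17 with an adjusted p of 0.00131, and edgeR on the recovered reads of all 12 libraries gave 1.65 with an adjusted p of 0.0440, as the 1 member among 3.97% of genes. Markers of other cells also differed between the groups. The summed level of 8 neutrophil genes was 55930.0 to 89292 in MDS and 110511 in AML 1, but 421 to 25548 in the other 5 AML libraries. Not every gene followed the sum. Mpo in AML 1, 2 and 5 (3275, 3975 and 3017) and Elane in AML 1 and 5 (1161 and 736) lay within the MDS range, as did Mmp8 in AML 1 (2319). S100a8, S100a9, Ngp, Ltf, Camp and Mmp8 lay below the MDS range in all of AML 2 to 6. 6 erythroid genes summed to 6994 to 23529 in MDS and 372 to 5239 in AML, with AML 1 at 3193 and AML 4 highest. In whole marrow, fewer cells of a type and less RNA per cell cannot be told apart, and the part of cell makeup in the Dnmt3a difference was not tested. In GENCODE vM21 an antisense gene, Dnmt3aos, overlaps Dnmt3a exons, and no source used here says whether counting used strand. 12 of the 34 members have such a gene on the other strand.

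**Figure D1:**
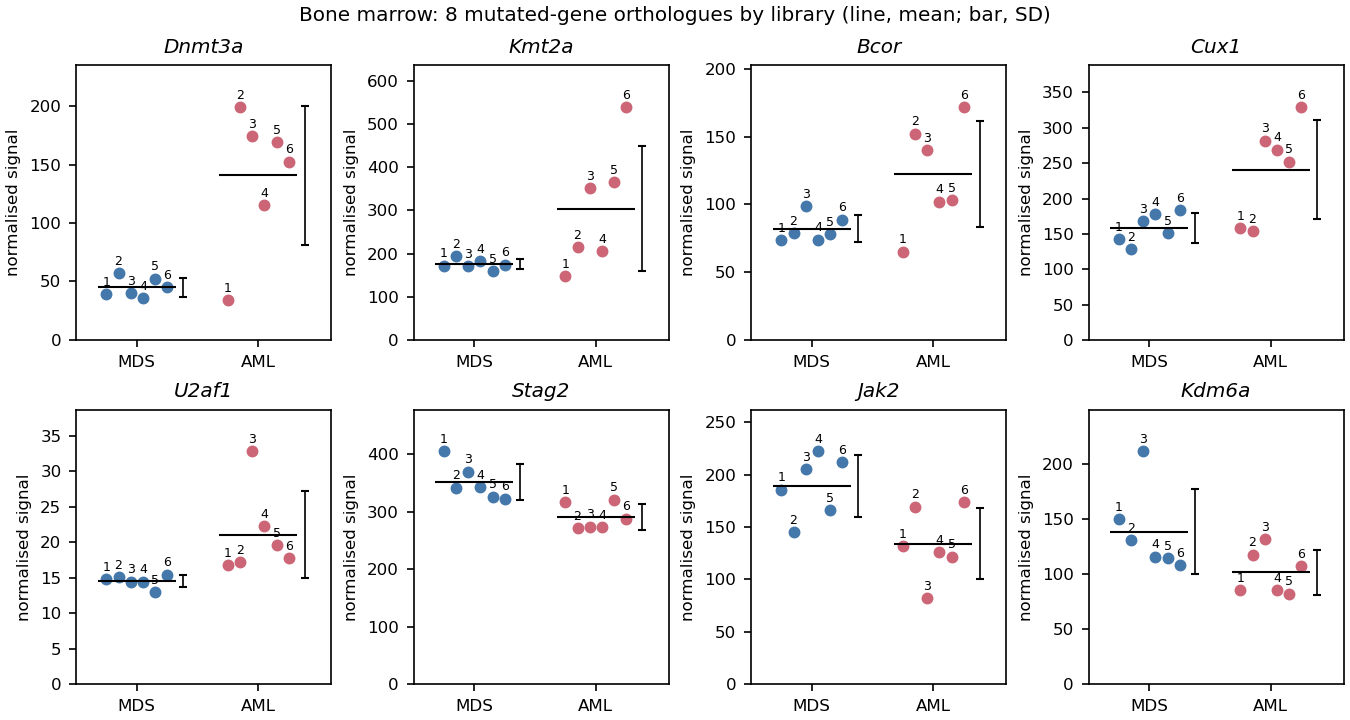
Normalised signal (y axis, from 0) of 8 members in the 6 MDS and 6 AML marrow libraries, numbered by replicate, with the group mean as a line and the SD as a bar. Dnmt3a is above the MDS values in 5 AML libraries and lowest in AML 1, while U2af1 and Stag2 do not overlap between the groups.

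The other members of the DNA methylation group did not pass. Tet2, the dioxygenase that starts demethylation, was 85.2 to 162 in MDS and 1.53 to 152 in AML, where AML 3 held the low value. The cytosolic enzyme Idh1 spread from 10.95 to 213 in AML against 77.95 to 128 in MDS. Its mitochondrial counterpart Idh2 was 37.8 to 161 against 47.4 to 88.8. All 3 overlap between the groups.

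Among the 9 Polycomb, Trithorax and corepressor genes none passed, and 3 had an unadjusted p under 0.05. The histone methyltransferase Kmt2a had a lowest, median and highest value of 159, 173 and 194 in MDS and 148, 284 and 539 in AML (0.66 ± 0.27, adjusted p = 0.132). The corepressor Bcor was 73.6, 78.4 and 98.9 in MDS and 65.00, 122 and 172 in AML (0.51 ± 0.21, adjusted p = 0.141). In both genes AML 1 lay below every MDS library and the other 5 AML libraries above. The X-linked histone demethylase Kdm6a was 108, 123 and 211 in MDS and 82.1, 96.2 and 131 in AML (-0.43 ± 0.19, adjusted p = 0.155). AML 1, 4, 5 and 6 lay below every MDS library and AML 2 and 3 among them.

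The core Polycomb genes were less uniform. Ezh2, which writes the repressive methyl mark, reached 446 in AML 3 and was 67.4 to 163 in MDS and 75.3 to 174 in the other AML libraries. Its partner Suz12 was 188 to 274 in MDS, was lowest in AML 2 at 115, and was highest in AML 3 and AML 4 at 404 and 455. Eed, the subunit that binds the mark, was 47.9 to 55.8 in MDS and 52.5 to 88.9 in AML. Phf6, a chromatin-binding zinc finger protein, was 33.7 to 50.7 in MDS, within that range in AML 1 and AML 2, and above it in AML 3 to 6 at 61.3 to 102. Asxl1 and the Bcor homologue Bcorl1 spanned 193 to 379 and 17.9 to 37.8 in AML against 226 to 347 and 28.7 to 44.6 in MDS.

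The 4 splicing genes and Ddx41, taken as 1 group of 5, all had a positive difference, none past the threshold, with a median of 0.17 on the log2 scale against 0.04 over all genes. U2af1, which reads the 3′ splice site, had a lowest, median and highest value of 12.97, 14.6 and 15.4 in MDS and 16.7, 18.7 and 32.8 in AML (0.47 ± 0.18, adjusted p = 0.114). Its groups did not overlap, as for 1.71% of all genes in the higher direction. The RNA helicase Ddx41 was 53.7 to 62.5 in MDS and 58.4 to 115 in AML, with AML 3 highest. Sf3b1, a branch-point factor, Srsf2, an exon-enhancer reader, and Zrsr2, a factor for minor introns, differed by 0.11, 0.17 and 0.11, with overlap in each.

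None of the 4 cohesin genes passed. Of them 3 had a negative difference in AML against MDS, and 2 had one when AML 1, 4 and 5 alone were compared with MDS. The cohesin subunit Stag2 had a lowest, median and highest value of 322, 342 and 404 in MDS and 271, 281 and 321 in AML (-0.27 ± 0.12, adjusted p = 0.145). All 6 AML libraries lay below all 6 MDS libraries, by a small margin, as for 2.13% of all genes in the lower direction. The kleisin Rad21 was 443 to 677 in MDS and 233 to 762 in AML, lowest in AML 2. The ring subunits Smc1a and Smc3 were 224 to 364 and 119 to 331 in AML against 259 to 368 and 151 to 196 in MDS.

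**Figure D2:**
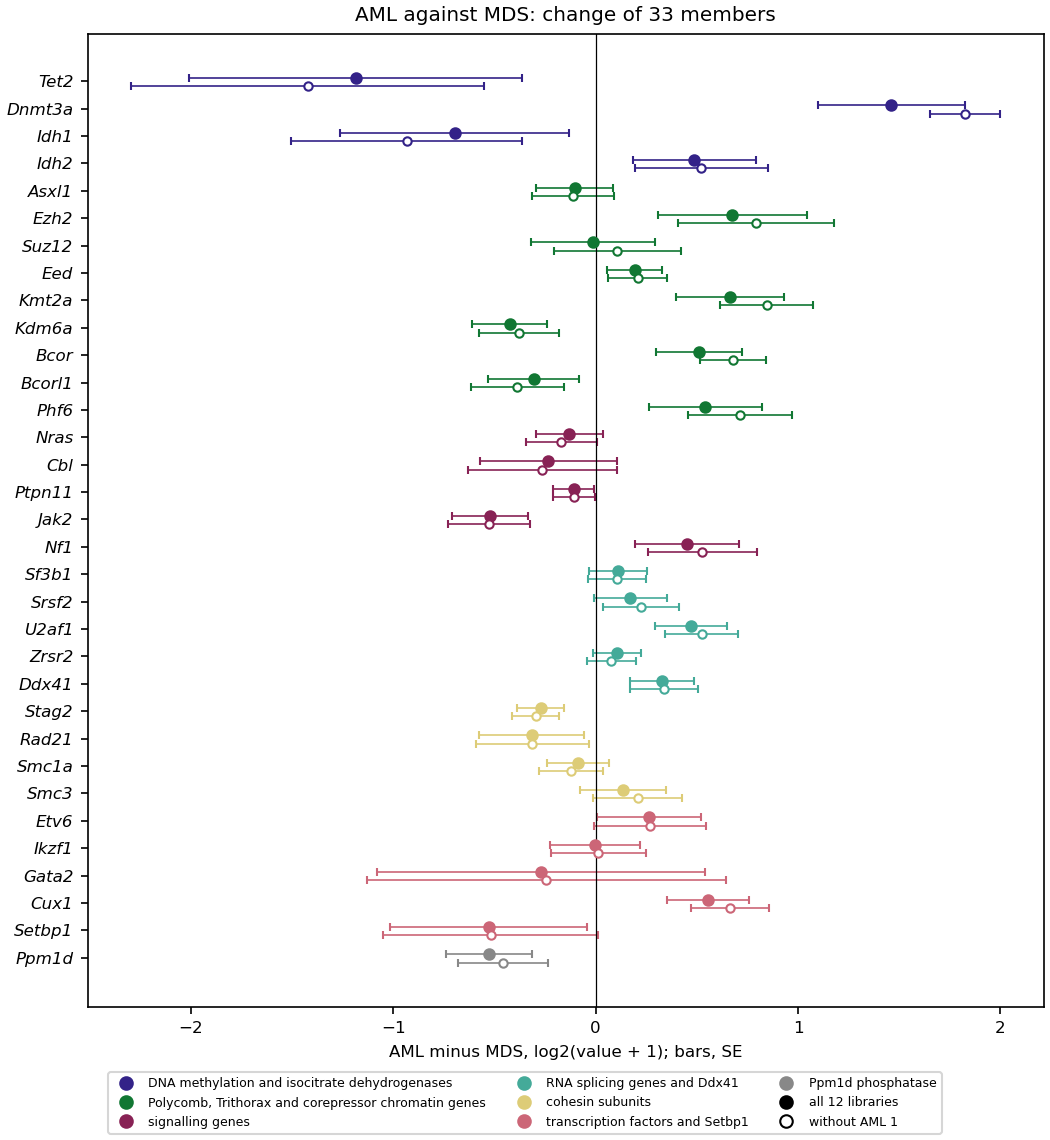
Difference of 33 members between AML and MDS marrow on the log2(value + 1) scale (x axis), with SE as bars, coloured by role; filled points use all 12 libraries and open points leave out AML 1. Dnmt3a lies at 1.46 and moves to 1.83 without AML 1, and the 4 splicing genes and Ddx41 all lie above 0.

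Of the 5 signalling genes, the cytokine receptor kinase Jak2 had the smallest p. Its lowest, median and highest values were 145, 196 and 222 in MDS and 81.9, 129 and 174 in AML (-0.52 ± 0.19, adjusted p = 0.104). The groups overlap. The Ras inhibitor Nf1 was 32.5 to 38.1 in MDS and 35.8 to 38.8 in 4 AML libraries, but 85.6 in AML 3 and 93.5 in AML 5. The small GTPase Nras was 118 to 188 in MDS and 90.2 to 157 in AML, lowest in AML 4. The ubiquitin ligase Cbl was 40.1 in AML 3 and 151 to 230.1 in the other AML libraries, with 128 to 186 in MDS. The phosphatase Ptpn11 hardly varied in MDS (186 to 193) and spanned 159.9 to 194 in AML.

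The homeodomain factor Cux1 was the transcription factor with the smallest p. Its lowest, median and highest values were 128, 159 and 183 in MDS and 154, 261 and 329 in AML (0.56 ± 0.20, adjusted p = 0.107). AML 3 to 6 lay above all MDS values and AML 1 and 2 among them. Ikzf1 was 522 to 765 in MDS and reached 1220.1 in AML 5, the library with the highest sum of T-cell genes. The ETS repressor Etv6 was 142 to 207 in MDS and spanned 95.3 to 319 in AML, lowest in AML 4. Setbp1 was low throughout, at 2.86 to 8.65 in MDS and 0.383 to 14.96 in AML. Ppm1d, a phosphatase that damps the p53 response, was 39.5 to 79.9 in MDS and 27.6 to 54.7 in AML, with a difference of -0.53 ± 0.21 (adjusted p = 0.134).

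Without AML 1, 4 members passed, all higher: Dnmt3a, Kmt2a (0.84 ± 0.23, adjusted p = 0.0263), Bcor (0.68 ± 0.16, adjusted p = 0.0175) and Cux1 (0.66 ± 0.19, adjusted p = 0.0313). These are 4 of 33, where 21.9% of all genes passed in that fit. Values of the remaining 5 AML libraries lay above all MDS values for Dnmt3a, Kmt2a, Bcor and U2af1 and below them for Stag2. The shares over all genes were 6.81% higher and 5.65% lower. Without AML 1 and AML 3, 3 members passed, where 20.6% of genes did.

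**Figure D3:**
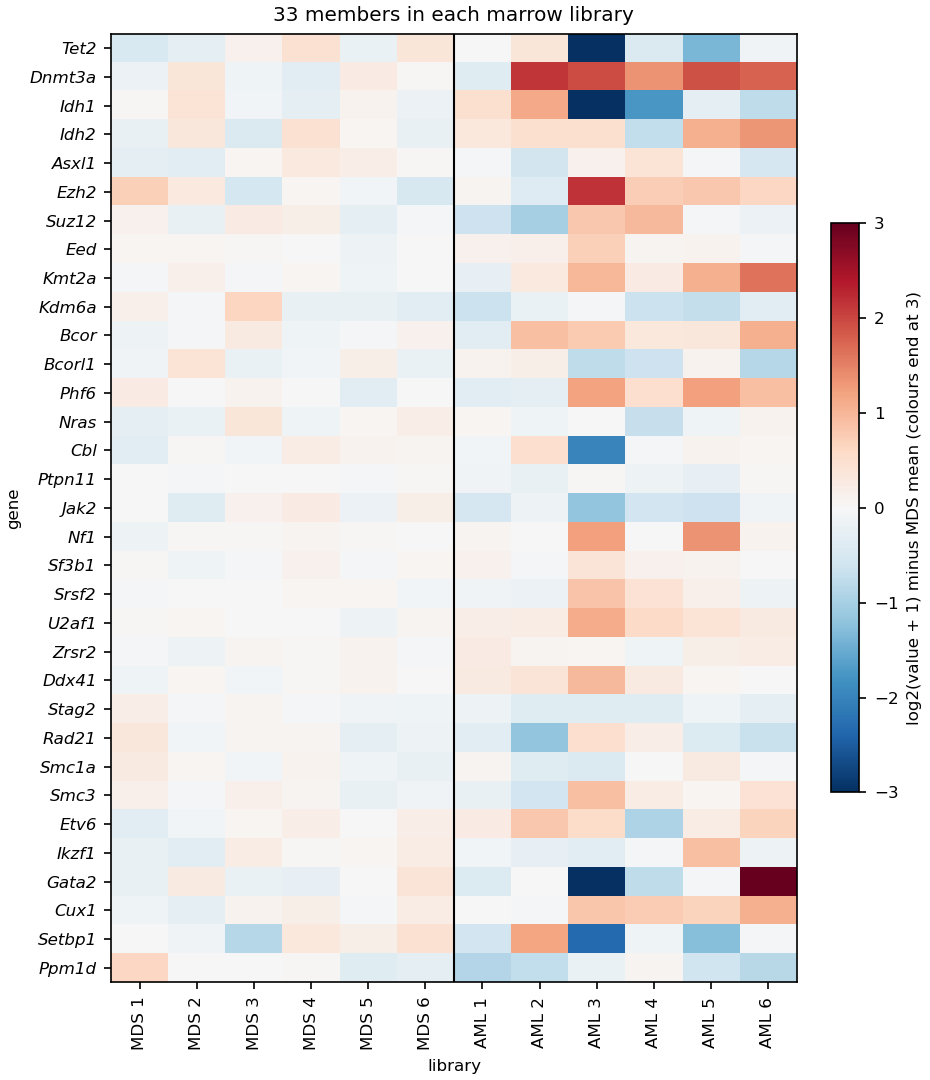
Each of 33 members (rows) in each marrow library (columns) as log2(value + 1) minus the mean of the 6 MDS libraries, with colours ending at 3 in each direction. AML 3 has the lowest Tet2, Idh1, Gata2, Cbl and Setbp1, AML 6 the highest Gata2, and Dnmt3a is high in AML 2 to 6.

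Several members stood out in single AML libraries. AML 3 held the lowest marrow value of Tet2 (1.53 against 44.7 to 162 in the other 11 libraries), of the stem and mast cell factor Gata2 (0.526 against 10.3 to 177), of Idh1 (10.95 against 27.7 to 213) and of Setbp1 (0.383 against 1.88 to 14.96). It also held the highest Ezh2, Eed, Smc3, Rad21, Srsf2, Sf3b1, U2af1 and Ddx41 of the 12. AML 3 lay outside the MDS range for 84.8% of the 33 members and for 81.4% of all 11275 genes. In AML 3, 8 neutrophil genes summed to 421, the lowest of the 12, and Pax5 was 208, against at most 5.93 in the other 11. AML 6 held the highest Gata2, at 177 against at most 23.9 in the other 11, and the highest Kmt2a, Bcor, Cux1 and Idh2. In AML 6, 5 megakaryocyte genes summed to 431, against 12.04 to 99.2 elsewhere, with Itga2b at 397. In AML 5, with 9 T-cell genes summing to 2429.9, Ikzf1, Phf6 and Nf1 were the highest of the 12 libraries. Of these T-cell genes, Cd2, Cd4 and Cd8a (9.51, 6.47 and 6.47) lay within the MDS range in AML 5, and the others lay above it. In AML 4, where the 9 genes summed to 1249, Ikzf1 and Nf1 (621 and 35.9) lay within the MDS range and Phf6 (61.3) lay above it. The part of these lineage differences in the members' values was not tested.

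AML 1, 4 and 5 alone were set against the 6 MDS libraries, which matches the ENU exposure. None of 33 members passed, nor did any of 11275 genes (limma, with 1671 or 14.8% at an unadjusted p under 0.05, among them 3 members, and 0 by edgeR, with 2025). The smallest p belonged to Kdm6a, with 85.3, 85.4 and 82.1 in these AML libraries, all below the lowest MDS value of 108 (-0.67 ± 0.21, adjusted p = 0.285). Jak2 was 132, 126 and 122, also below all MDS values (-0.57 ± 0.23, adjusted p = 0.315). 4 members were lower and 2 higher with no overlap, where 4.43% and 5.13% of all genes were. Dnmt3a differed by 0.97 ± 0.40 (adjusted p = 0.318), Cux1 by 0.49 ± 0.24 and U2af1 by 0.40 ± 0.22. Without AML 1, Dnmt3a passed with 2 AML libraries left (1.63 ± 0.23, adjusted p = 0.00674), as 6.05% of all genes did. Kdm6a is X-linked and escapes X inactivation, and Ddx3y, a Y-linked gene, also varied in marrow, from 15.1 to 130.3 in MDS, with 68.0, 31.7 and 84.4 in AML 1, 4 and 5. In MDS 1 to 6 Ddx3y was 87.96, 30.6, 15.1, 130.3, 48.2 and 116. Kdm6a was 149, 130.2, 211, 116, 114 and 108 in the same order. In AML 2, 3 and 6 Ddx3y was 3.46, 0.574 and 145 and Kdm6a was 117, 131 and 107. The part of donor or host sex in the Kdm6a difference was not tested.

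Within AML, the 3 mice with ENU in donor and recipient were compared with AML 2 and AML 3, which had none. None of 33 members passed, where 0.408% of genes did, and 4 had an unadjusted p under 0.05, where 12.5% did. Bcor was 65.00, 102 and 103 with ENU and 152 and 140.2 without (-0.72 ± 0.24, adjusted p = 0.225). Etv6 was 213, 95.3 and 209.9 against 319 and 264 (-0.84 ± 0.33, adjusted p = 0.323). Both were lower with ENU in all 3 libraries. Smc1a was 319.8, 299 and 364 against 234 and 224, higher in each (0.51 ± 0.21, adjusted p = 0.337). Ddx41 was 70.96, 71.04 and 60.8 against 76.1 and 115 (-0.47 ± 0.21, adjusted p = 0.380). Dnmt3a differed by -1.08 ± 0.52 (adjusted p = 0.429), again without overlap. In all, 6 members were lower and 2 higher with no overlap, where 6.69% and 8.31% of genes were. Without AML 2, 8 members passed against AML 3 alone: Tet2, Gata2, Idh1 and Cbl higher with ENU, and Ezh2, Smc3, Ddx41 and Eed lower, where 22.7% of all genes passed. The Y-linked gene Ddx3y was 3.46 and 0.574 in AML 2 and AML 3 and 31.7 to 84.4 in the 3 libraries with ENU, and Bcor and Smc1a are X-linked. Its part in their values was not tested. The fit without AML 2 takes the spread of the lone library from the other groups, and AML 3 is the library with high Pax5.

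The pathway partners of the members, 113 further genes in 7 lists, gave 2 calls among 109 tested in AML against MDS, where 3.2% of all genes passed. The splicing factor Srsf7 rose (mean 297 against 184, 0.67 ± 0.17, adjusted p = 0.0499), 1 of 20 splicing partners tested. Tal1, a master factor of blood and erythroid development, fell (68.3 against 258, -2.01 ± 0.50, adjusted p = 0.0499), 1 of 12 transcription factor partners. Both calls end without MDS 1, 2, 3, 5 or 6 and without AML 5 or 6, since 0 genes passed in each of these fits. Erythroid markers were lower in all 6 AML libraries, as given above. None of the 11 DNA methylation, 23 Polycomb and Trithorax, 23 signalling, 11 cohesin and 9 p53 pathway partners tested passed. None of the partners passed in the other 7 comparisons, by limma.

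In LSK cells no member passed in any of 4 comparisons. Transplanted WT against WT asked what transplantation with a control shRNA changed, and 0.0256% of 11730 genes passed. 4 of 32 members had an unadjusted p under 0.05, where 7.29% of genes did, and all 4 were lower after transplantation. The median log2 difference was -0.28 over the 32 members and -0.00069 over all genes, with 8 of 9 chromatin genes and all 5 signalling genes negative. Tet2 was 13.9, 3.15 and 8.41 in WT and 0.0223, 2.25 and 0.840 in transplanted WT, with no overlap (-2.19 ± 0.72, adjusted p = 0.544). Ptpn11 was 27.1, 25.8 and 28.1 and 18.5, 22.4 and 15.6, also with no overlap (-0.51 ± 0.22, adjusted p = 0.657). 3 members were lower with no overlap, as were 8.42% of genes, and none was higher (7.71% of genes). Stag2 was 66.9, 17.6 and 54.00 against 16.7, 20.6 and 17.1 (-1.11 ± 0.43, adjusted p = 0.612). Phf6 was 103, 52.4 and 93.2 against 49.2, 59.3 and 46.97 (-0.62 ± 0.25, adjusted p = 0.627). In both genes WT 2 lay with the transplanted libraries and the other WT libraries lay above. Kdm6a was 7.003, 12.9 and 4.62 against 1.55e-07, 6.38 and 3.67 (-1.39 ± 0.77, adjusted p = 0.764). Its value in transplanted WT 1 is a near-zero estimate, and low values of Tet2, Kdm6a and Kmt2a varied widely within every group.

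WT 2, transplanted WT 3 and EAP 1 differed from the other LSK libraries in many members at once. In all 3, Ddx41, Eed, Nras and Smc3 lay above every one of the other 9 libraries, and Bcor, Cbl, Cux1, Etv6, Gata2, Ikzf1 and Ppm1d lay below. Counted 1 library at a time and in either direction, many of all 11730 genes also lay outside the range of the other 9. In WT 2, transplanted WT 3 and EAP 1 this held for 58.7%, 54.7% and 67.2% of them. The shares of the 32 members were 59.4%, 46.9% and 71.9%. The share of all genes outside in all 3 libraries at once was not computed. Nras, for example, was 161, 98.8 and 215 in these libraries and 49.0 to 72.7 in the other 9. Cbl was 5.42, 5.60 and 4.46 against 14.0 to 29.1. Idh1 reached 264 in EAP 1, where it was 39.0 to 96.2 in the other 11. Gata2 was 18.3 and 9.25 in WT 2 and EAP 1 and 54.98 in transplanted WT 3. One such library sits in each of 3 groups. Without them, 4 members passed as lower in transplanted WT: Stag2 (-1.64 ± 0.22, adjusted p = 0.0202), Phf6 (-0.85 ± 0.14, adjusted p = 0.0254), Etv6 (-0.77 ± 0.13, adjusted p = 0.0272) and Cbl (-0.81 ± 0.18, adjusted p = 0.0435). Here 4.18% of all genes passed, with 2 libraries a group, and with a term for the 3 libraries in place of their removal no member passed. Ddx3y was 0.0415 in WT 2 and 14.3 to 55.5 in the other 11 libraries, and WT 2 also had the highest Kdm6a, an X-linked gene. A sum of 7 neutrophil genes was 16240 in EAP 1, of which Mpo was 14566.5, and 1789 to 8041 in the others. Other quantities separated all 3 libraries from the other 9. Their summed values were the highest, at 1130054, 1206739 and 1437201 against at most 1034526. Of 9 listed stromal genes, 2 were measured in LSK cells, Pdgfrb and Eng. Their sum was 22.4, 30.03 and 13.3 in WT 2, transplanted WT 3 and EAP 1, against 79.1 to 123 in the other 9. Eng gave the larger part in every library. A sum of 4 B-cell genes was 355, 250.3 and 292, against 72.4 to 157. In this sum Cd79b alone separated all 3 libraries, at 242, 231 and 276 against 47.8 to 119. Cd79a, Vpreb1 and Ebf1 overlapped. Kit, a gene of the LSK gate, was 158, 170.5 and 65.3 in WT 2, transplanted WT 3 and EAP 1, against 215 to 598 in the other 9. Ly6a, the other gate gene given above, overlapped. The part of these in the members' values was not tested.

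**Figure D4:**
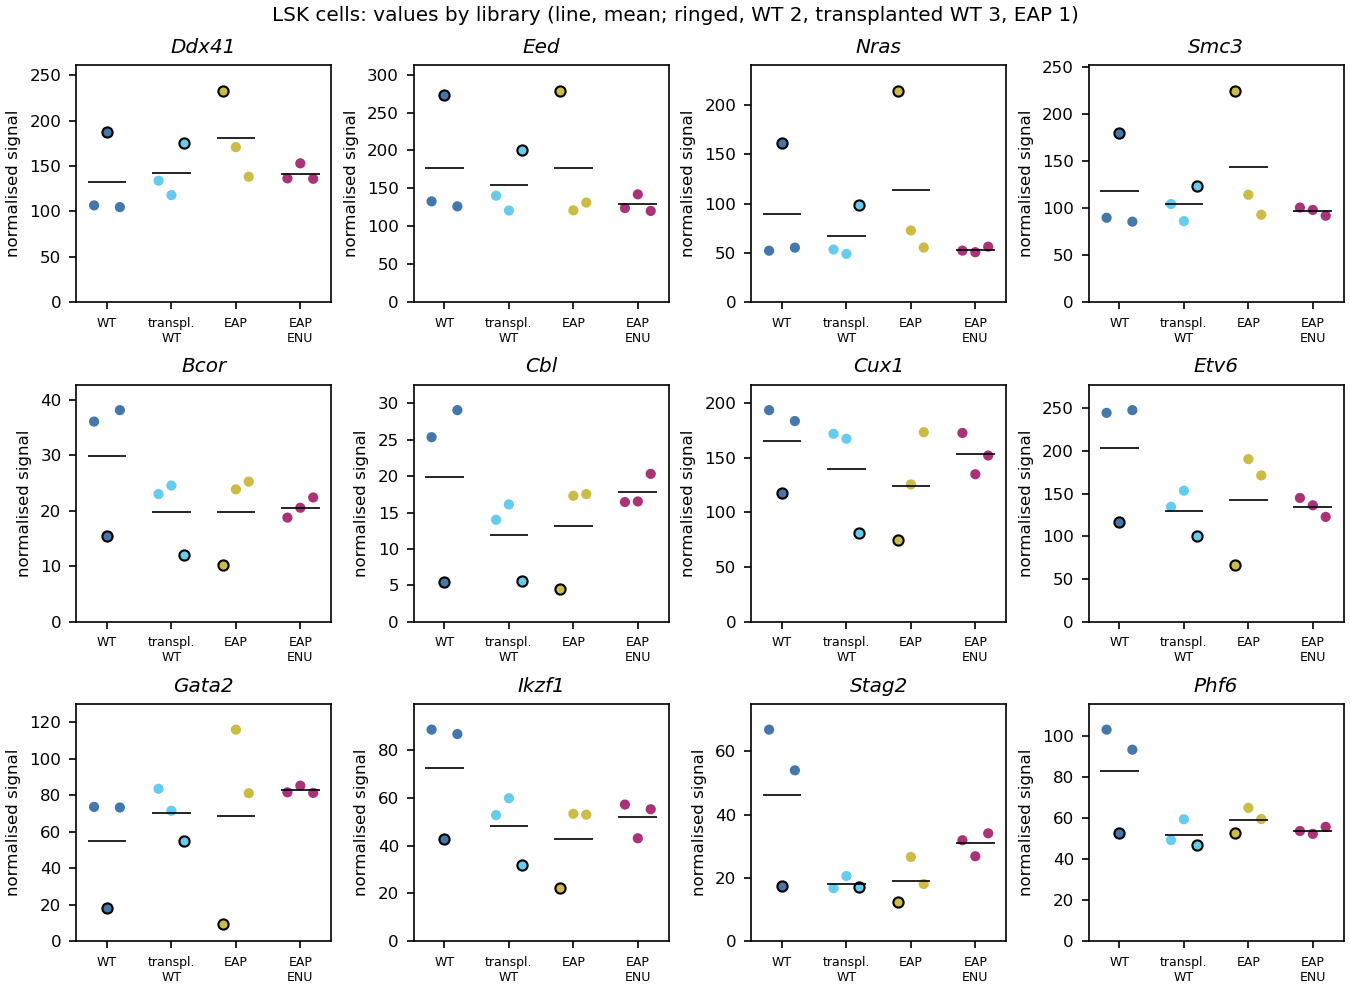
Normalised signal (y axis, from 0) of 12 members in the 4 LSK groups of 3 libraries, with the mean as a line and WT 2, transplanted WT 3 and EAP 1 ringed. The ringed libraries are highest for Ddx41, Eed, Nras and Smc3 and lowest for Bcor, Cbl, Cux1, Etv6, Gata2 and Ikzf1.

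EAP against transplanted WT asked what loss of Egr1, Apc and Trp53 dosage changed, and again no member passed (0.0256% of genes did). No member had an unadjusted p under 0.05, where 3.61% of genes did. The smallest p belonged to Zrsr2, at 32.1, 30.99 and 17.99 in EAP and 20.99, 14.6 and 16.2 in transplanted WT (0.59 ± 0.30, adjusted p = 1.0000). Kmt2a was 2.54, 7.49 and 16.1 against 2.73, 4.22 and 0.842, with wide spread in both. Bcorl1 was 0.437, 0.662 and 0.829 against 1.45, 1.47 and 0.731. Tet2 was 1.97, 8.84 and 1.29 against the transplanted WT values above. The groups overlap in these 4 genes. Ezh2 was 124, 128 and 108 against 101, 99.7 and 101 (0.25 ± 0.17, adjusted p = 1.0000). It was the 1 member without overlap, higher in EAP, as were 3.8% of genes, and none was lower (3.18%).

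EAP with ENU against EAP asked what the mutagen added. No member and none of the 11730 genes passed by limma, and 617 genes (5.26%) but no member had an unadjusted p under 0.05. Kmt2a was 5.20, 0.253 and 3.02 with ENU, overlapping its values in EAP (-1.35 ± 0.70, adjusted p = 0.909). Stag2 was 31.9, 26.8 and 34.1 with ENU and 12.3, 26.6 and 18.1 without (0.73 ± 0.43, adjusted p = 0.909). Idh2 was 734, 733 and 703 with and 517, 447 and 679 without (0.42 ± 0.26, adjusted p = 0.909). Stag2, Idh2 and Srsf2 were higher with no overlap, where 6.68% of genes were, and none was lower (5.98%). Nras was 52.3, 50.7 and 56.3 with ENU and 215, 72.7 and 55.4 without, where EAP 1 alone is far above. Asxl1, a Polycomb-associated scaffold, was 23.8, 25.4 and 26.6 with ENU and 3.31, 26.3 and 27.1 without (0.82 ± 0.63), and without EAP 1 its difference was -0.08.

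EAP with ENU against transplanted WT shares its libraries with the comparisons above. No member passed (0.0171% of genes did). 7 of 32 members were higher with no overlap, where 9.9% of genes were, and none was lower (8.61%). None had an unadjusted p under 0.05, where 3.21% of genes did. Srsf2 was 1119, 1229 and 1097 with ENU and 977, 628 and 497 in transplanted WT (0.77 ± 0.36, adjusted p = 0.9996). Ptpn11 was 25.1, 23.6 and 29.4 with ENU, above the transplanted WT values given before (0.46 ± 0.22, adjusted p = 0.9996). Stag2 and Asxl1 differed by 0.74 ± 0.43 and 0.78 ± 0.63, and all 3 EAP with ENU libraries lay above the transplanted WT libraries for each. Asxl1 was 19.6, 13.3 and 11.1 in transplanted WT. Cbl, U2af1 and Ezh2 were the other 3 without overlap. Dnmt3a was 23.6, 16.1 and 21.4 with ENU and 29.00, 25.3 and 22.7 in transplanted WT, and its groups overlap (-0.33 ± 0.31, adjusted p = 0.9996). Dnmt3a was 27.7, 22.5 and 26.4 in WT and 16.7, 42.6 and 25.7 in EAP. Sums of monocyte and of neutrophil genes had higher medians in EAP with ENU, but not every gene on these lists was higher. 7 monocyte genes summed to 273 to 325 in EAP with ENU and 95.9 to 232 in transplanted WT. Csf1r, Ccr2 and Cd14 were higher with no overlap, C1qa and C1qb lower with no overlap, and Ly6c2 and Cd68 overlapped. 7 neutrophil genes summed to 5793 to 8041 and 2523 to 6450.0, which overlap. Mpo made up most of this sum, at 4908 to 6951 and 2305 to 5712. Elane was higher with no overlap, and the other neutrophil genes overlapped. The part of these markers in the members' values was not tested. The members not named so far in LSK cells spanned, over the 12 libraries, 16.3 to 59.9 for Jak2, 0.602 to 2.70 for Nf1, 119 to 266 for Sf3b1, 34.2 to 66.02 for Rad21, 113 to 162 for Smc1a and 45.9 to 97.0 for Suz12. None of these passed in any comparison.

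In stromal cells, ENU was set against mock to ask what exposure changed in the bone marrow environment. None of 32 members tested passed, nor did any of 12089 genes (limma, with 312 or 2.58% at an unadjusted p under 0.05, and 1 member). Same-numbered stromal libraries deviated together, and with the replicate number as a block again no gene passed, with 1213 genes and 4 members, Kdm6a, Idh1, Kmt2a and Ezh2, at an unadjusted p under 0.05. Kdm6a had the smallest p. It was 2.16, 3.26 and 3.22 TPM in mock 1 to 3 and 0.667, 1.33 and 1.20 TPM in ENU 1 to 3, so every ENU library lay below every mock library, as for 4.27% of genes (-0.91 ± 0.24, adjusted p = 0.9998). With the replicate number as a block the difference was -0.91 ± 0.15 with an adjusted p of 0.447. The Y-linked gene Ddx3y was 0.219 and 0.201 TPM in mock 1 and 2, 79.0 in mock 3 and 68.1 to 87.0 in ENU. Mock 1 and 2 thus lack Y-linked transcripts and mock 3 and all ENU libraries have them. With a term for this split, chosen after seeing the data, the Kdm6a difference was -1.05 ± 0.34 (adjusted p = 0.367), a value that rests on mock 3 alone. Since 1 mock library has Y-linked transcripts, sex and treatment can hardly be told apart here, and the part of sex in the Kdm6a difference was not tested.

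Idh1 was 348, 267 and 224 TPM in mock and 255, 209 and 141 TPM in ENU (-0.49 ± 0.27, adjusted p = 0.9998). Each ENU library lay below the mock library of its number, and the groups overlap. With the block the difference was -0.49 ± 0.09 (adjusted p = 0.473). For Kmt2a the mock values were 6.10, 9.22 and 8.14 TPM, and the ENU values were 8.12, 11.5 and 9.83 (0.30 ± 0.20, and 0.30 ± 0.09 with the block, adjusted p = 0.483). The ENU libraries had 81.1, 75.98 and 74.95 TPM of Nras and the mock libraries 74.3, 72.6 and 67.9 (0.11 ± 0.08, and 0.11 ± 0.06 with the block). For Sf3b1 the ENU libraries had 135, 130.1 and 127 and the mock libraries 125, 123 and 123 (0.08 ± 0.08, and 0.08 ± 0.06 with the block). All 3 genes were higher in the ENU library of each pair. Both Nras and Sf3b1 were higher in ENU with no overlap, as were 2.8% of genes. Dnmt3a was 9.59, 5.83 and 5.39 TPM in mock and 7.10, 6.70 and 6.65 TPM in ENU. Of the 32 members, the 5 signalling genes and the 4 splicing genes with Ddx41 all had positive differences, with medians of 0.11 and 0.078 against -0.0050 over all genes. Apart from Kdm6a, Idh1 and Kmt2a, the differences lay between -0.23 for Idh2 and 0.24 for Gata2. Ikzf1 and Wt1 did not reach the level needed for the test.

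**Figure D5:**
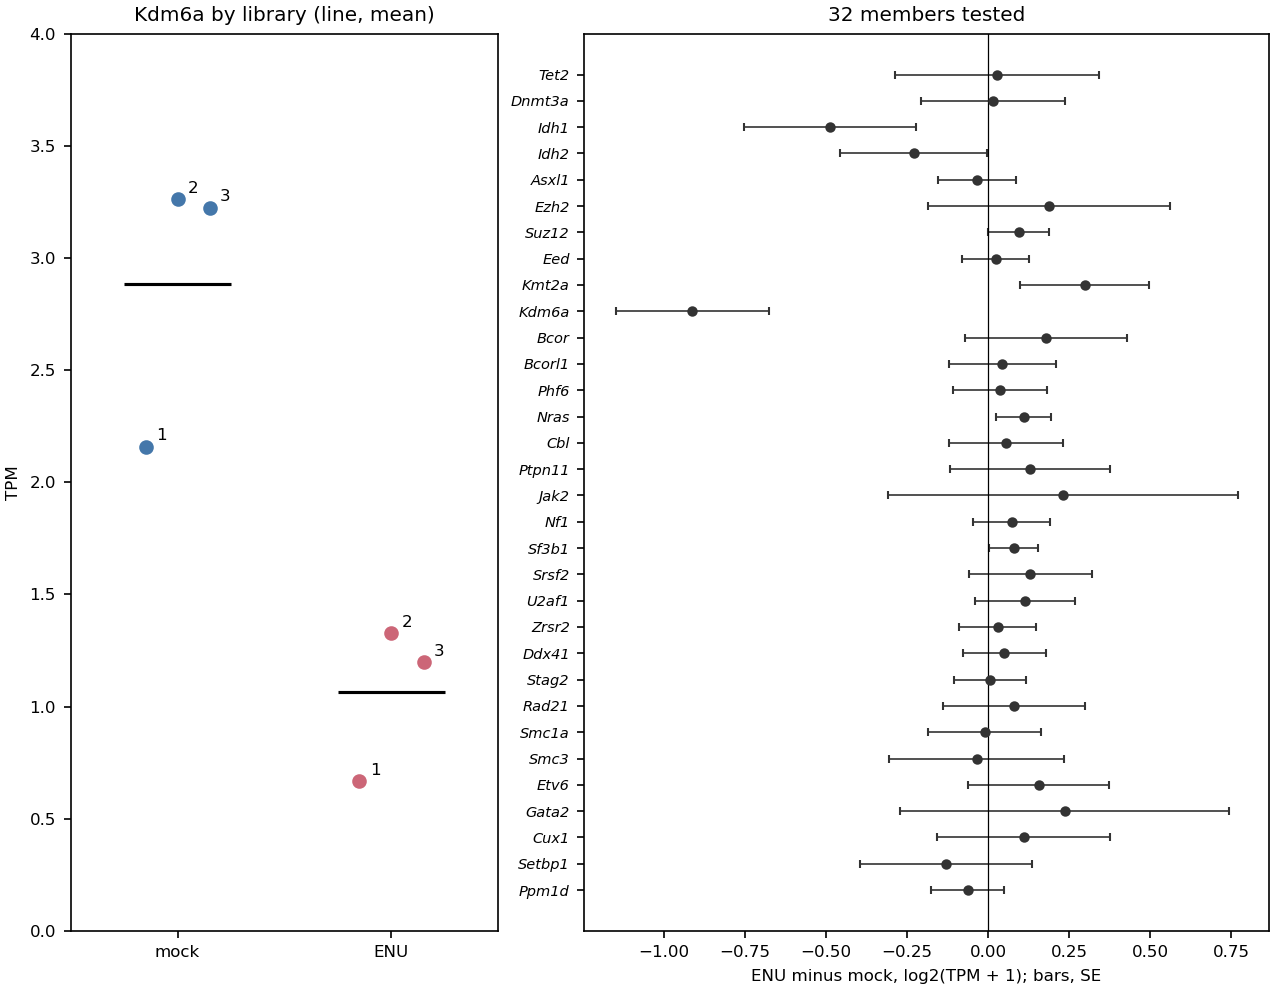
Left, Kdm6a in TPM (y axis, from 0) in 3 mock and 3 ENU stromal libraries, numbered, with the mean as a line; right, difference of the 32 members tested on the log2(TPM + 1) scale with SE as bars. The bars come from the fit without the replicate block. Kdm6a lies at -0.91 and the other members lie between -0.49 and 0.30.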

How the data were processed

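Per the submitters' processing notes, the tools were TopHat, SAMtools and edgeR, with bcl2fastq and FastQC before them, and the build was mm10. No source used here gives the counting program, the annotation or the scaling. The deposited LSK and marrow values are a normalised signal per gene, named CPM by the authors although the library totals differ. The deposited stromal values are TPM. The test had been planned for CPM and was kept for the signal. In marrow, 99.99 to 100% of values were whole multiples, within 0.05, of 1 read. In marrow 155 rows that repeat another gene were merged.

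Groups came from the labels. The 8 comparisons used limma 3.58.1 in R 4.3.3 on log2(value + 1), which understates changes of low genes, with Benjamini-Hochberg adjustment over all genes tested and a threshold of 0.05. A gene was tested if at least n libraries had a value of 1 or more, n being the size of the smaller group. Alternatives were leaving out each library in turn, rescaling by median of ratios, testing unfiltered genes, adding 0.1 in place of 1, the replicate block, the 2 groups alone (LSK), edgeR 4.0.16 (marrow) and, added after seeing the data, fits without libraries that stand apart or with a term for them, and a term for Y-linked transcripts in stromal cells. Same-numbered stromal libraries deviated together (correlations 0.50 to 0.72), so results with the replicate block are given beside the main fit. The main fit has no block. These correlations were computed after the block's counts had been seen. The tests were tried on simulated data with known changes. Positions and lengths are from GENCODE vM21. Tables and figures used Python 3.11.15, pandas 2.3.3 and matplotlib 3.10.9.

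Members and lists were chosen with earlier results of these data known. Values are given by library for every member that passed and for the 5 members with the smallest p in each comparison, and other members by their range. One marker gene is not reported here.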

Additional observations from a re-analysis of the deposited data

Results flagged for a closer look

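In 8 of 66 pairs of a member and a marrow group of 6 libraries, 1 library lay further from the others than Dixon's 95% limit allows. Chance flags about 1 in 20, and 6.23% of all pairs of a gene and a group were flagged. In AML these were Dnmt3a in AML 1 (34.03), Tet2, Cbl and Eed in AML 3 (1.53, 40.1 and 88.9), Nras and Etv6 in AML 4 (90.2 and 95.3) and Ikzf1 in AML 5 (1220.0). In MDS it was Eed in MDS 5 (47.9). Dnmt3a, Tet2, Cbl, Nras, Etv6 and Eed of MDS 5 were low values, and Ikzf1 and Eed of AML 3 were high ones.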

How the results depend on the processing

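Over 534 combinations of a named member and an alternative setting, 509 kept direction and side of the threshold, 13 lost the call, 10 gained one and 2 turned direction. The last 2 were Asxl1 in EAP with ENU against EAP, at -0.076 without EAP 1 (adjusted p = 0.971) and at -0.076 without the 3 LSK libraries that stand apart (adjusted p = 0.896), against 0.82 with all and -0.076 to 1.28 with single libraries left out. Counts of genes called moved as follows. For transplanted WT against WT (3) they were 1 with the replicate block, 0 with the 2 groups alone, 490 without the 3 libraries that stand apart (4 members) and 275 with a term for them, and 1 to 5 with single libraries left out. For EAP against transplanted WT (3) they were 0 with the block, 0 with the groups alone, 1 without the 3 libraries, 6 with the term and 0 to 1 with libraries left out. EAP with ENU against EAP (0) gave 1 without the 3 libraries. EAP with ENU against transplanted WT (2) gave 1 with a pseudocount of 0.1, 1 with the block, 6 with the groups alone, 6 without the 3 libraries, 9 with the term and 0 to 1 with libraries left out. For AML against MDS (361, 1 member) they were 145 with a pseudocount of 0.1 (0 members), 141 with the block (0 members), 2317 without AML 1 and AML 3 (3 members), 2688 by edgeR without AML 1 (6 members) and 0 to 2472 with libraries left out (0 to 4 members). AML 1, 4 and 5 against MDS (0) gave 0 to 682 (0 to 1 member), the highest without AML 1. AML with ENU against none (46) gave 108 with a pseudocount of 0.1, 15 by edgeR and 14 to 2559 with libraries left out (0 to 8 members), the highest without AML 2. Stromal ENU against mock (0) gave 9 with no filter, 1 without both number 3 libraries and 0 to 3 with libraries left out, the highest without mock 3. The cause of these shifts was not tested. In LSK cells and marrow the replicate numbers did not pair the libraries. In stromal cells the block changed no member's call. Depth is known for marrow alone.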
